A study of Homo sapiens with 4 samples.

Results

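AP-1 is a family of transcription factors that bind DNA as pairs through a basic region and a leucine zipper. The rows of 10 such genes were taken from the deposited RNA-seq table by gene symbol, namely FOS, FOSB, FOSL1 and FOSL2 of the FOS family, JUN, JUNB and JUND of the JUN family, and MAFF, MAFG and MAFK of the small MAF family. Of these 10 genes, 9 had rows, which made 22 of the 43596 transcripts and 9 of the 15126 genes in the table. FOSB has no row in the table, so its level is not analysed here, and it enters only the search of promoters at the end. The study treated the human breast cancer line MDA-MB-231, which is triple-negative and mesenchymal in appearance, for 24 h with DMSO, which is the solvent, or with 10 µM KH-3, a compound that blocks binding of the protein HuR to mRNA, with 2 libraries in each group. All libraries came from this same cell line, which limits what they can stand for.

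FOS proteins pair with JUN proteins but not with each other, whereas JUN proteins can also pair among themselves. FOS and JUN are immediate-early genes, whose mRNA appears within minutes of growth factor signalling and is quickly degraded, while FOSL1 (encoding FRA-1) and FOSL2 (encoding FRA-2) are switched on later and last longer. The small MAF proteins have a zipper but no activation domain of their own, and act as partners of the CNC factors, NRF2 among them, and of BACH1. HuR is known to bind AU-rich sequence in the 3′UTR of mRNAs, and FOS mRNA is the textbook example of an mRNA with such an element.

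The measurement used is the authors' mean normalized read count of each transcript, pooled over libraries. It holds no value per library and no value per group, so KH-3 was not compared with DMSO, no spread between replicates can be given, and the depth is unknown. Whether the mean covers other libraries of the study, such as those with 5 µM KH-3 named in its methods, is not given in the sources used here. Each level below therefore describes MDA-MB-231 cells with and without the compound together, and the order of genes with similar levels cannot be set against an error. To compare genes, each transcript's mean was divided by its length in kb and summed over the listed transcripts of the gene. This level is written as reads per kb. It is a partial sum for any gene with a transcript that has no row. The median of all 15126 genes was 108 reads per kb, and their 75th percentile was 316.

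FOSL1 stood highest of the 9 genes at 1729 reads per kb, which was 16.0 times the median gene, at percentile 96.3 of all genes. FOSL2 followed at 554 reads per kb, at percentile 85.1, and JUN at 431, at percentile 80.9. FOS, the founding member of the family, was lowest at 37.3 reads per kb, at percentile 29.9, and was the only listed member below the median gene. The level of FOSL1 was 46.4 times that of FOS and 4.01 times that of JUN. The other 5 genes lay close together. MAFG had 380 reads per kb, MAFK 283, JUND 262, JUNB 250 and MAFF 236, between percentiles 68.4 and 78.7. Neighbours among MAFK, JUND, JUNB and MAFF differed by ratios of 1.05 to 1.08, and without a spread between libraries no order can be read from these 4.

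**Figure D1:**
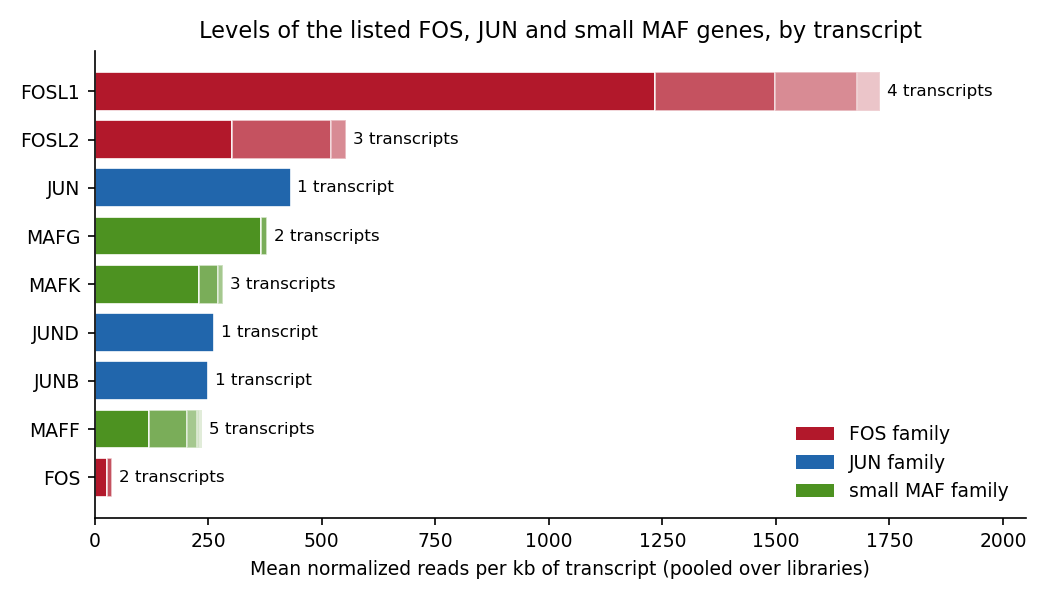
Level of each listed gene in mean normalized reads per kb of transcript (x axis, pooled over libraries by the authors, no error available), with each bar divided by transcript from the highest (darkest) to the lowest. FOSL1 reaches 1729 and FOS 37.3, while the 7 other genes lie between 236 and 554.

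**Figure D2:**
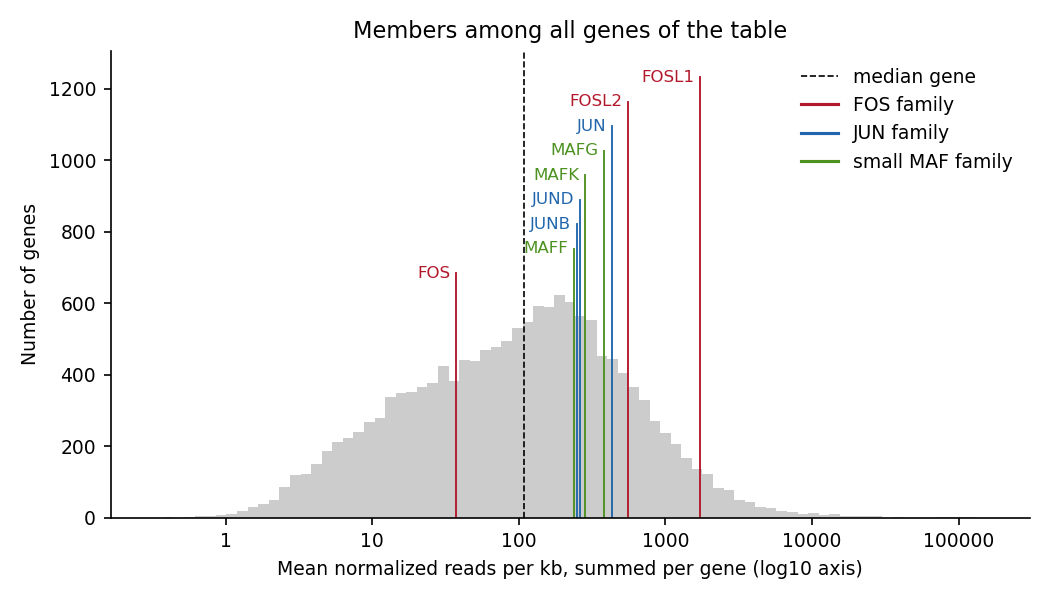
Histogram of the level of all 15126 genes in mean normalized reads per kb (x axis, log10) with the number of genes on the y axis, the median gene as a dashed line and each member as a coloured line whose height only separates the names. FOS is left of the median of 108, and the other 8 members are right of it.

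Summed by family, the FOS genes held 55.7% of the members' level, the JUN genes 22.7% and the small MAF genes 21.6%. FOSL1 alone made up 41.5% of the sum over the 9 genes and 74.5% of the FOS family. FOS made up 1.61% of its family. There were 2.46 reads per kb of FOS family mRNA for each read per kb of JUN family mRNA, and 0.626 when FOSL1 was left out. Within the JUN family, JUN, whose protein is a strong activator, held 45.7%, JUND 27.8% and JUNB 26.5%. The small MAF genes were more even, with 42.3% from MAFG, 31.5% from MAFK and 26.3% from MAFF. Without division by length the JUN family held 20.7% and the small MAF family 28.0%, so their order turned with the scale. On that scale the summed mean of FOSL2, at 3327 normalized reads, was also above that of FOSL1, at 2710, because FOSL2 transcripts are longer.

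AU-rich sequences, a kind that HuR is known to bind, were looked up in the 3′UTR of the leading transcript of each gene, the transcript with the highest mean. Uridine-rich sequences, which the authors also name for HuR, were not searched. The letters searched were ATTTA, the longer TATTTAT and the nonamer TTATTTATT, in the sense strand, where each longer motif contains the shorter. Shown here is the longest match in each gene, or the first of several, with the motif in capitals and DNA letters in the sense of the mRNA, from GENCODE release 44 on hg38.
FOS, chr14:75282060-75282088, plus strand: tgtttttaatTTATTTATTaagatggatt
FOSL2, chr2:28416355-28416383, plus strand: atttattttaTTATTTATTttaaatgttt
MAFF, chr22:38215914-38215942, plus strand: tccccactgtTTATTTATTgcacggatct
MAFK, chr7:1542851-1542879, plus strand: ttccatttcaTTATTTATTttttgtgctg
FOSL1, chr11:65892272-65892300, minus strand: agggcagctgcTATTTATtttcctaaaga
JUN, chr1:58780819-58780847, minus strand: ttgcttatgaaTATTTATaacagcattct
JUND, chr19:18279998-18280026, minus strand: cgattctgcccTATTTATgtttctactcg
MAFG, chr17:81921789-81921817, minus strand: gagctgcagagTATTTATaaaactgtctt
JUNB, chr19:12793060-12793088, plus strand: atatatttgtgtATTTAacagggagggga

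All 9 genes held ATTTA, against 74.2% of the 10525 genes whose leading transcript has an annotated 3′UTR. TATTTAT was found in 8 of the 9, with JUNB as the exception, against 36.1% of those genes. The nonamer occurred in 4, namely FOS, FOSL2, MAFF and MAFK, against 9.56%. These are counts of letters in reference sequence, given as a description of 9 chosen genes, and the table holds no measurement of HuR binding. In that reference each member's leading transcript differs in length from the one the authors counted. Longer 3′UTRs hold more matches, and the shares above were not matched for length. The members' lengths ran from 500 bases in JUNB to 4869 in FOSL2, with a median of 1284 against 1324 in all genes. Of the 4 genes with the nonamer, FOSL2, MAFK and MAFF were longer than that median, at 4869, 2668 and 1629 bases. FOS was shorter, at 806. Per length, FOS was highest with 6.20 ATTTA per kb, from 5 copies in 806 bases, at percentile 94.9. JUNB had 4.0 per kb from 2 copies in 500 bases, at percentile 83.3. The remaining 7 genes had 1.19 to 2.46 per kb, around the median of 1.79 for all genes. FOSL1, the gene with the highest level, had the fewest per length, with 1 copy in 837 bases. FOS, the gene with the lowest level, had the most, and with 9 points no relation was tested.

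**Figure D3:**
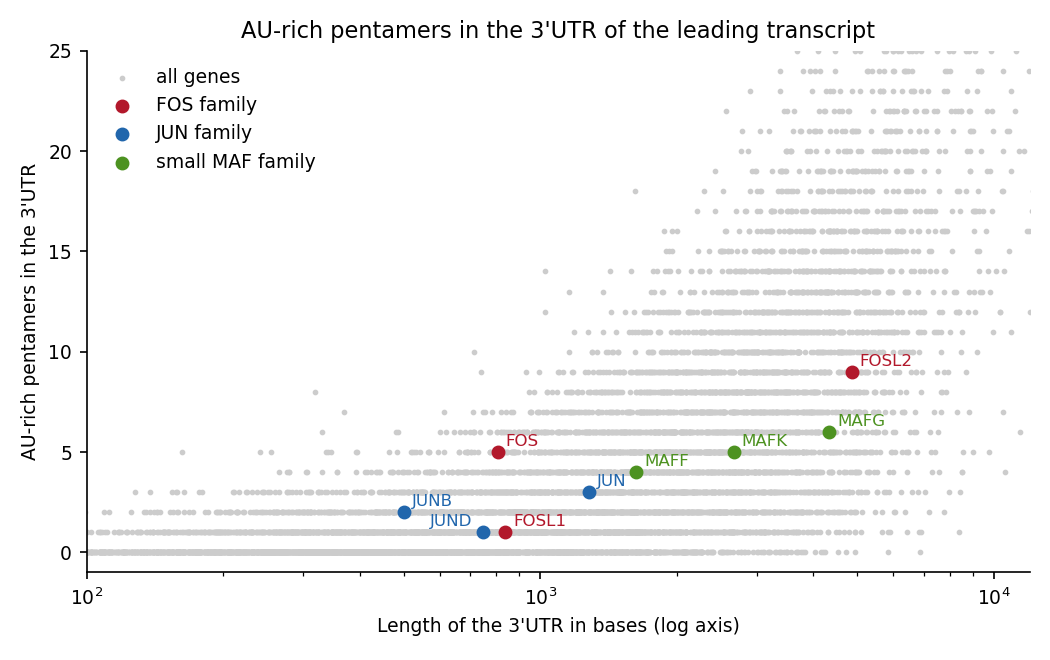
Number of AU-rich pentamers (y axis) against the length of the 3′UTR of the leading transcript in bases (x axis, log), with all genes as grey points and members in colour, and 518 genes outside the plotted range. FOS has 5 copies in 806 bases, JUND and FOSL1 have 1 copy each at 747 and 837 bases, and FOSL2 has 9 in 4869.

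FOSL1 lies on the minus strand of chromosome 11 of hg38, from 65892049 to 65900573, and had 4 listed transcripts, all protein-coding. FOSL1-001, which encodes the full reading frame of 271 codons in 4 exons, had a mean of 2058 normalized reads and 71.3% of the gene's level. FOSL1-002 had a mean of 379, FOSL1-005 of 215 and FOSL1-006 of 58.2, and their annotated reading frames of 169, 235 and 135 codons are shorter. The shorter transcripts share almost all of their sequence with FOSL1-001. Of the stretches of 36 bases in each, only 2.22% to 2.92% occurred in no other listed transcript of the gene, so the split of reads between them rests on few bases. A pseudogene, FOSL1P1, holds 115 of the 1667 stretches of FOSL1-001. FOSL1 remained the highest of the members when only its leading transcript was counted, at 1233 reads per kb.

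FOSL2 lies on the plus strand of chromosome 2 of hg38, from 28392448 to 28417317. Its reads were divided mainly between FOSL2-001, with a mean of 2032 and a reading frame of 326 codons, and FOSL2-002, with a mean of 1265 and 318 codons. Both end in nearly the same 3′UTR, of 4869 and 4864 bases, which holds 9 ATTTA in each. Only 2.07% of the 36-base stretches of FOSL2-002 are its own. FOSL2-004, a fragment without an annotated stop codon, had a mean of 30.2. When only the leading transcript was counted, FOSL2, with 303 reads per kb, stood in the fourth place of the members and not in the second, below JUN and MAFG.

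FOS lies on the plus strand of chromosome 14 of hg38, from 75278826 to 75282230. Its main transcript FOS-001, with 4 exons and 380 codons, had a mean of only 59.3 normalized reads, little above the median of 50.8 over all listed transcripts. FOS-011, with 2 exons and 232 codons, had a mean of 12.5, near the lowest mean listed of 7.34. It carries another 3′ end, of 163 bases with no ATTTA. FOS was the lowest of the 9 members under each of the 4 other ways of forming the level.

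JUN, JUNB and JUND each had 1 transcript in the table, which consists of 1 exon. No stretch of 36 bases of JUN-001 or JUND-001 occurred in another annotated gene. JUN lies on the minus strand of chromosome 1 of hg38, from 58776845 to 58784048, and JUN-001 had a mean of 1526 normalized reads over 3540 bases. JUND lies on the minus strand of chromosome 19, from 18279694 to 18281622, with a mean of 489. JUNB lies on the plus strand of the same chromosome, from 12791486 to 12793315, with a mean of 455. JUND, the broadly expressed member, and JUNB, which often acts as a weaker activator than JUN, lay at a ratio of 1.05. JUN was 1.64 times as high as JUND and 1.73 times as high as JUNB. The whole of JUNB lies within the annotated span of HOOK2 on the other strand, and 12.5% of its 36-base stretches also occur in annotated HOOK2 transcripts, on the opposite strand. HOOK2 itself had 64.2 reads per kb.

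MAFG lies on the minus strand of chromosome 17 of hg38, from 81918270 to 81927735. MAFG-001 carried 96.4% of its level, with a mean of 1847 normalized reads, and its 3′UTR of 4335 bases with 6 ATTTA is far longer than its 162 codons. MAFG-002, which has the same coding sequence and a 3′UTR of 1045 bases with fewer matches, had a mean of 24.1. MAFG shares an annotated span of 3054 bases with SIRT7 on its own strand, and 4.66% of the 36-base stretches of MAFG-001 also occur in other genes. SIRT7 had 126 reads per kb.

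MAFK lies on the plus strand of chromosome 7 of hg38, from 1530702 to 1543043. MAFK-001, with 156 codons, had a mean of 774 normalized reads and 81.1% of the level. MAFK-002, annotated as a target of nonsense-mediated decay, has the same coding sequence but 4 exons and another 3′UTR, of 1287 bases. Its mean was 115, with 14.6% of the level. It was the only member transcript of a type other than protein-coding, and without it MAFK, with 242 reads per kb, stood in the seventh place of the members and not in the fifth. The 3′ end of MAFK overlaps TMEM184A on the other strand by 809 bases, and 23.2% of the 36-base stretches of MAFK-001 also occur in transcripts of other genes, the most among the members. TMEM184A had 49.7 reads per kb.

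MAFF, known as the small MAF gene that stress and cytokines induce, lies on the plus strand of chromosome 22 of hg38, from 38200767 to 38216507. It had 5 listed transcripts, more than any other member, with means of 297, 186, 49.2, 18.4 and 10.9 normalized reads. They differ mainly in their 5′ exons. The coding sequence of 164 codons is identical in 4 of them, and MAFF-203 has a shorter one of 135 codons. All 5 end in nearly the same 3′UTR, of 1625 to 1629 bases, so each carries both nonamers, the second of which is at bases 1535 onward. MAFF-001 held 50.4% of the level, and with this transcript alone MAFF had 119 reads per kb. Of the 36-base stretches of MAFF-001, 16.8% also occur in transcripts of other genes, chiefly PLA2G6 on the other strand, which had 84.5 reads per kb. Whether reads were counted by strand is not given in the sources used here, so reads from such antisense partners cannot be told apart from those of JUNB, MAFF and MAFK, nor those of a lncRNA across MAFG. Between members, the only stretches shared were 2 between MAFG and MAFK.

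The genes that act with the members were described from fixed lists, by their pooled level only. These lists were chosen with earlier results of these data known. Of 15 ATF, BATF and JDP partners, which pair with FOS or JUN proteins or bind related sites, 14 had rows, with a median of 136 reads per kb, and 8 were above the median gene. ATF4, a factor of the amino acid and stress response, led them at 3918 reads per kb, followed by ATF6B at 641 and ATF1 at 329. BATF2 was the lowest listed at 13.8. ATF3, a stress-induced partner of JUN, had 95.5, and ATF2, a partner of JUN at cAMP response elements, had 106. ATF3 was at 0.883 of the median gene and ATF2 at 0.981. Without an error ATF2 cannot be set apart from that median.

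Of 9 large MAF, CNC and BACH genes, 7 had rows, and they fell apart into high and low. NFE2L3 had 1250 reads per kb, NFE2L2, which encodes NRF2, 754 and NFE2L1 499, all above each of the small MAF genes. BACH1, a repressor that also needs a small MAF, had 144. MAFA, BACH2 and NRL had 5.08 to 14.3. MAFF, at 236 reads per kb, was 16.5 times as high as the large MAF gene MAFA.

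Among 18 kinases and upstream factors of AP-1, 17 had rows and 14 were above the median gene. The ERK kinases' activators MAP2K2 and MAP2K1 stood at 1369 and 1293 reads per kb, and ELK3, a ternary complex factor at serum response elements, at 1028. MAPK7 was lowest at 17.9. The JUN kinases MAPK9 and MAPK8 had 348 and 168. All 5 genes of JUN and FOS turnover had rows. The ubiquitin ligase gene ITCH led at 519, COPS5 had 292 and RFWD2, which encodes the ligase COP1, 257, and DET1, a partner of COP1, was lowest at 65.2.

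Of 16 genes known as AP-1 targets, 13 had rows, and 10 were above the median gene. The median of these 13 was 921 reads per kb, and the genes without a row do not enter it. VIM, encoding vimentin, had 10135 reads per kb, HMGA1 4449 and TIMP1 2598, while the protease gene MMP3 was lowest at 9.26. The urokinase gene PLAU had 1544 and its receptor PLAUR 835, but the collagenase gene MMP1 only 24.2. As a check of the cell line, VIM, KRT18 and AXL, which MDA-MB-231 carries, were at percentiles 98.2 to 99.6. The other markers listed for this line were lower. CD44 had 427 reads per kb, at percentile 80.8, and the keratin KRT8 had 384, at percentile 78.9. The epithelial gene EPCAM had 43.3. ERBB2 had 44.3, and both it and EPCAM were below the median gene. CDH1, ESR1, PGR and PTPRC are not analysed here, and of the markers of other cells COL1A1 had 39.4 and PECAM1 4.08.

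**Figure D4:**
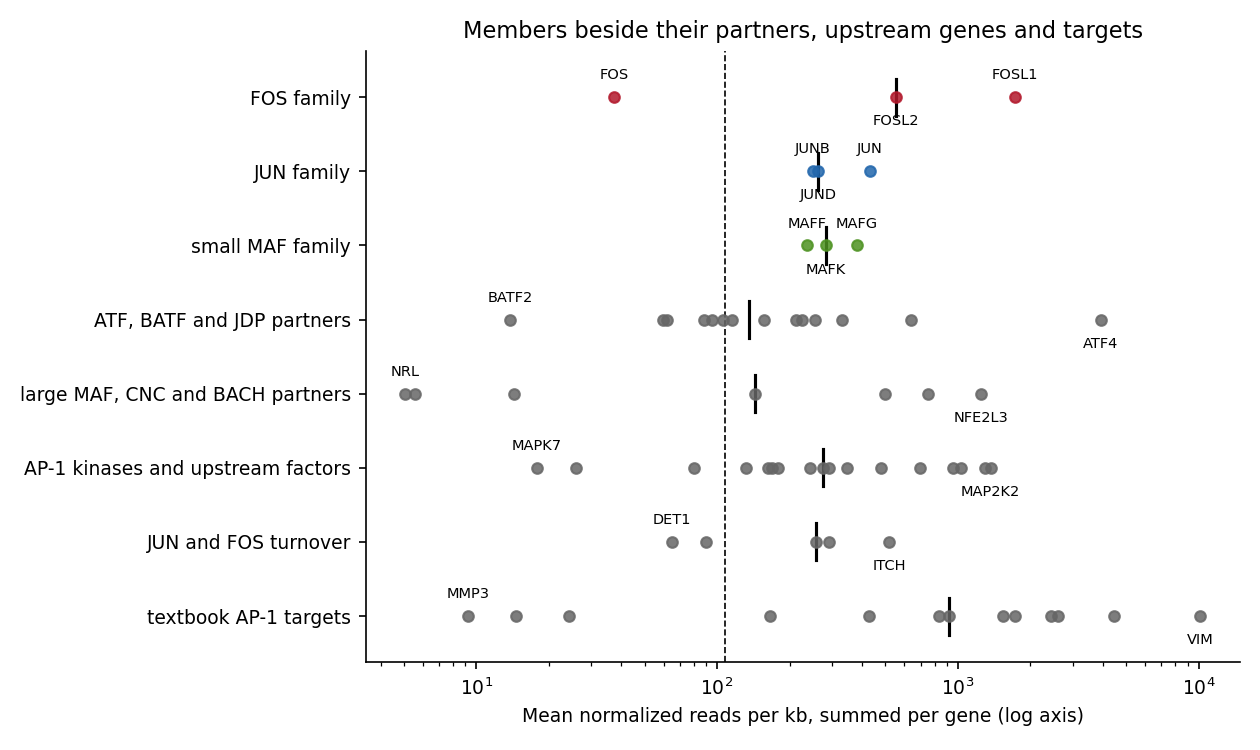
Level of each listed gene in mean normalized reads per kb (x axis, log) by gene list (y axis), with list medians as black bars and the median of all genes as a dashed line. The 3 small MAF genes lie between 236 and 380, while their CNC and BACH partners and the large MAF genes reach from 5.08 to 1250.

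RefSeq promoter sequence of GRCh38.p14, from 250 bases before to 50 after the gene start, was at hand for 8 of the 10 members, without FOSL1 and MAFK. It was searched on both strands for TGACTCA, the AP-1 site, for TGACGTCA, the cAMP response element, for TGACATCA, a variant known from JUN, and for the CArG box bound by serum response factor. These sites are shown because AP-1 genes are known to be controlled by AP-1 and ATF factors, and the match is in capitals.
FOSL2, chr2:28392851-28392879, plus strand: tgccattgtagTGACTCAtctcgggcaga
JUN, chr1:58784096-58784125, minus strand: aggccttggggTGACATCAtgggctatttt
JUND, chr19:18281804-18281833, minus strand: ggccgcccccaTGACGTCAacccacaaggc
MAFF, chr22:38201929-38201958, plus strand: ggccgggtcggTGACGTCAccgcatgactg

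Counted from the RefSeq gene start, the match in JUN begins 67 bases before it, that in MAFF 54 bases and that in JUND 200 bases before it, while the one in FOSL2 begins 4 bases after it. The RefSeq start lies inside the GENCODE span given above by 410 bases in FOSL2 and by 1227 bases in MAFF, so both of these matches lie within that span. Of all 35116 promoters in the collection, 4.95% held TGACTCA, 1.85% TGACGTCA and 2.61% TGACATCA. No member held a CArG box in this window, against 1.29% of all promoters. The known serum response element of FOS lies further upstream than the window reaches. The table holds no measurement of binding at these sites.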

How the data were processed

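The authors made mRNA libraries from MDA-MB-231 cells after 24 h with DMSO or 10 µM KH-3, with 2 biological replicates per group. The authors mapped reads to transcripts of GENCODE release 24 (hg38) with STAR, estimated reads per transcript with eXpress and compared groups with DESeq2. Tool versions are not given in the sources used here. The deposited table gives 1 signal per transcript, the authors' mean normalized read count, and the authors' own log2 fold change, p-value and q-value. These 3 columns were not used, nor the order of rows. The mean is pooled over libraries, so no test was run.

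The lowest mean listed was 7.34, and why other transcripts have no row is not given in the sources used here. Levels were the sum over listed transcripts of mean per kb. A gene with a transcript that has no row therefore has a partial sum, which also lowers its percentile and its ratios. Coordinates, reading frames and 3′UTRs come from GENCODE release 44 (hg38). All 22 transcripts were found in it by ID without version, and 13 had equal length. None of the leading transcripts did, and the largest difference was 283 bases, in JUN-001. The 3′UTR lengths and motif counts of the leading transcripts therefore rest on models that differ in length from those the authors counted. The printed 3′UTR and promoter windows were checked against the hg38 genome. Protein sequences were not used here.

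Named were all members and, of each fixed gene list, the 3 highest and the lowest gene. ATF2, ATF3, MAPK8, MAPK9, PLAU, PLAUR, MMP1, BACH1, MAFA, BACH2, CD44, KRT8, ERBB2, EPCAM and COL1A1 were named after their values were seen. Items withheld from the lists are not reported here. Members and lists were chosen with earlier results of these data known. Summation was tested on simulated data, and motif counting on short made-up sequences. Python 3.11.15, numpy 2.4.6, pandas 2.3.3 and matplotlib 3.10.9 were used.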

Additional observations from a re-analysis of the deposited data

How the results depend on the processing

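No paired analysis was possible because the table holds no values per library. For the same reason no library could be left out. The FOS family held 56.7% of the members' level with an effective length (200 bases taken off), 56.3% with protein-coding transcripts only, 48.5% with the highest transcript only and 51.3% without division by length. In the same order the JUN family held 22.4%, 22.9%, 29.3% and 20.7%, and the small MAF family 20.9%, 20.8%, 22.2% and 28.0%. The FOS family was the largest under all 4. FOSL1 was the highest gene under all but the scale without length, where FOSL2 was. Ranked among genes with a protein-coding transcript, 3 members in place of 4 were above the 75th percentile, and the number above the median gene stayed at 8, as it did with transcripts of a mean of at least 20. With the longest annotated 3′UTR the sum of 36 ATTTA over the members and the 4 genes with the nonamer were the same. Depth and the error of every level are unknown, and how reads shared between transcripts of a gene were divided limits each transcript's value more than the gene's.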
